A study of Homo sapiens with 4 samples.

Results

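The deoxynucleotide enzymes described here are 9 genes that make, salvage or remove the building blocks of DNA: RRM1, RRM2, RRM2B, TYMS, TK1, DUT, DTYMK, DCK and SAMHD1. They were found by symbol in a table of raw RNA-seq counts, where each symbol had 1 entry, so that the members are 9 of 12912 genes. All 9 had enough counts to be tested. The rule that finds them uses their symbols alone, although the set was proposed with earlier results of these data known.

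The study asked which genes and proteins respond when VHL is put back into 786-O, a human clear cell renal carcinoma cell line without functional VHL. RNA was sequenced from 786-O-Ctrl, which is VHL-null by its label, and from 786-O-VHL, which carries a retroviral vector for HA-tagged human VHL, with 2 libraries per group. Both groups are labelled as the triple-reporter (TR) versions of the sublines, which also express a fusion of thymidine kinase, GFP and luciferase, and both grew in RPMI1640 with fetal bovine serum and penicillin/streptomycin. Each group is 1 subline, and no source says whether its libraries came from separate cultures, so that a p-value measures only the spread between these libraries.

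Ribonucleotide reductase turns ribonucleotides into deoxyribonucleotides and sets the pace of DNA precursor supply. It pairs a large subunit, RRM1, with a small subunit, either RRM2, which dividing cells make for S phase, or RRM2B, which is induced by DNA damage and supplies precursors for DNA repair and mitochondrial DNA. Thymidylate is made de novo by TYMS or salvaged by TK1, and most of these genes are classical targets of the E2F factors that start DNA replication.

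The counts of a library summed to between 2807779 and 22141263, the lowest being 786-O-VHL replicate 1, where the members had between 61 and 334 counts each. Levels are given in CPM, read counts brought to a common library size with TMM factors, which correct for libraries of different composition. The 2 libraries of 786-O-Ctrl are told apart by their depth, as the deeper and the shallower one, and values are given in that order, followed by 786-O-VHL replicates 1 and 2. VHL itself was at 42.9 and 43.9 CPM in 786-O-Ctrl against 178 and 163 CPM in 786-O-VHL. All 6 markers of renal epithelial carcinoma cells, PAX8, PAX2, VIM, KRT8, KRT18 and EPAS1, were detected in every library, of which VIM, PAX8, KRT8 and PAX2 were lower in 786-O-VHL (log2 fold changes −1.21, −0.90, −0.56 and −0.40), EPAS1 was higher (1.37) and KRT18 did not pass the test. The endothelial markers PECAM1 and KDR together did not exceed 0.760 CPM and the leukocyte marker CD14 did not exceed 1.02 CPM. The fibroblast markers COL1A1 and PDGFRB together were at 9.64 and 9.97 CPM in 786-O-Ctrl against 12.9 and 12.6 CPM in 786-O-VHL, and PDGFRB was higher in 786-O-VHL (log2 fold change 0.70, FDR 0.0147). The other markers chosen for these cell types, CDH5, PTPRC, CD3E, COL1A2 and DCN, had no entry in the deposited counts. The part of other cells in the members' values was not tested.

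In 786-O-VHL, 7 of the 9 members were lower and 2 were higher at a false discovery rate (FDR) below 0.05, by edgeR's quasi-likelihood test adjusted over the 12335 genes tested. Over all genes tested, 31.9% were lower and 32.6% were higher by the same rule. The 7 that fell were RRM2, TK1, TYMS, RRM1, DTYMK, DUT and DCK, and the 2 that rose were SAMHD1 and RRM2B. RRM2, TK1 and TYMS fell more than 4-fold at an FDR below 0.01, which 1.54% of the genes tested did. The median log2 fold change (786-O-VHL over 786-O-Ctrl) was −1.15 over the members and 0.02 over all genes tested. The counts of the members together were 1182 and 1155 CPM in 786-O-Ctrl against 482 and 522 CPM in 786-O-VHL. For no member did the libraries of the groups overlap. The share of all genes tested for which this holds was not computed, so it is not read as particular to the members. An exact permutation test of a single gene with 2 libraries against 2 cannot give a two-sided p below 0.333, which it gave for each member. In bulk RNA, fewer cells in S phase and less RNA per cell cannot be told apart.

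**Figure D1:**
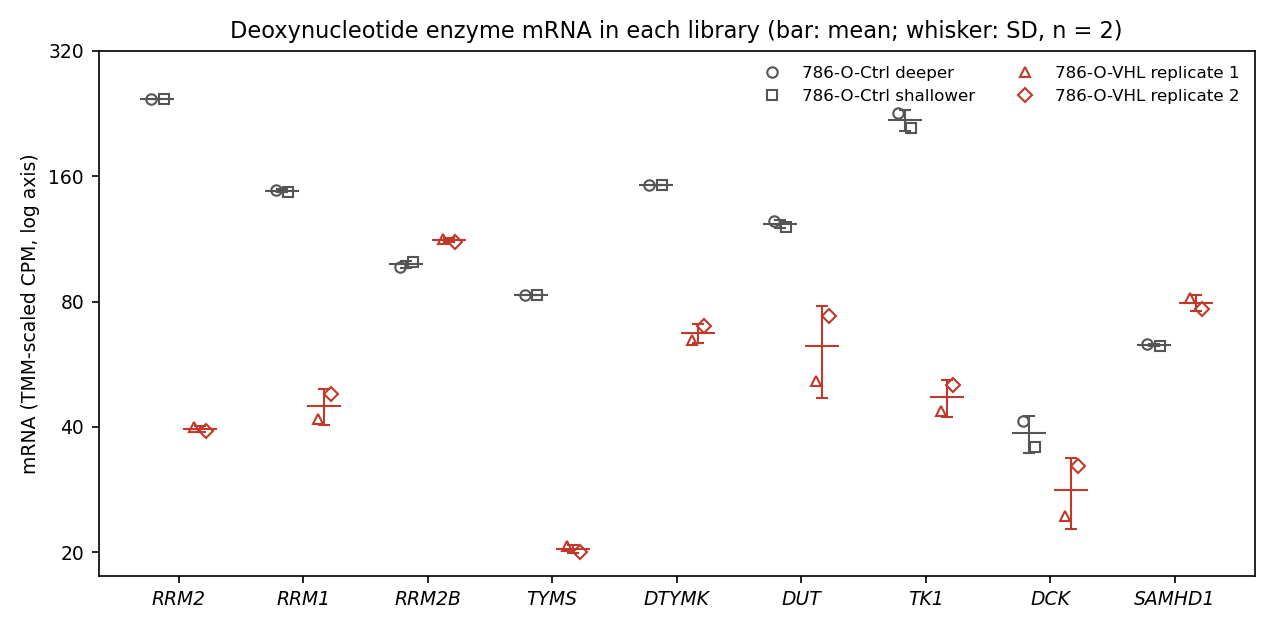
Levels of the 9 members in the 4 libraries, in TMM-scaled CPM on a log axis. Open symbols are libraries, horizontal bars are group means and whiskers are the SD of 2 libraries. RRM2 lies near 245 CPM in 786-O-Ctrl and near 40 CPM in 786-O-VHL, whereas RRM2B and SAMHD1 lie slightly higher in 786-O-VHL.

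**Figure D2:**
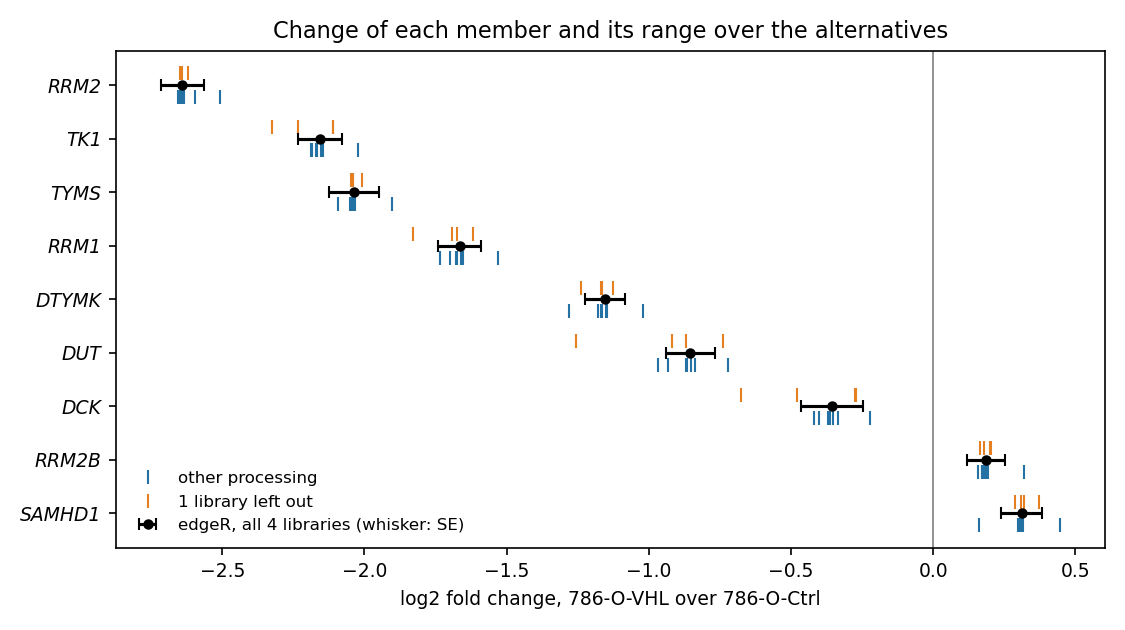
Log2 fold change of each member, 786-O-VHL over 786-O-Ctrl, with its standard error (black), after leaving out 1 library (orange) and under other processing (blue). Every mark of RRM2 lies below −2.5 and every mark of RRM2B and SAMHD1 lies above 0, close to it.

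The sequence just upstream of the transcription start is shown for RRM2, TK1, TYMS and RRM1, which fell most, and for SAMHD1, which rose. The sequences are from RefSeq on GRCh38.p14, and each is the 150 bases before an annotated start, written 5′ to 3′ on the strand of the gene. RRM2 and TK1 each have 2 annotated starts, and the one whose window held more of the letters marked here was chosen. The window of the other RRM2 start held 1 CCAAT box and that of the other TK1 start held 0. Capitals mark the letters CCAAT or their reverse complement ATTGG (the CCAAT box, bound by NF-Y), and in TYMS the letters GCGGGAAA, the reverse complement of the E2F motif TTTCCCGC.
RRM2, chr2:10122589-10122738, plus strand: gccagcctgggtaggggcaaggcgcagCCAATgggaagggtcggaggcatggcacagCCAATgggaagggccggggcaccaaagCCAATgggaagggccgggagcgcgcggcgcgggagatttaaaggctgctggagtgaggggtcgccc
TK1, chr17:78187053-78187202, minus strand: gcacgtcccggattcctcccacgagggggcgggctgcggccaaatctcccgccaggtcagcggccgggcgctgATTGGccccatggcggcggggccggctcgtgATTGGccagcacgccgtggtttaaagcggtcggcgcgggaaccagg
TYMS, chr18:657503-657652, plus strand: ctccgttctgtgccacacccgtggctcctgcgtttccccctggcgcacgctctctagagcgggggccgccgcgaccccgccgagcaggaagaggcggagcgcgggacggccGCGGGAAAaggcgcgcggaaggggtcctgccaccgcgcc
RRM1, chr11:4094535-4094684, plus strand: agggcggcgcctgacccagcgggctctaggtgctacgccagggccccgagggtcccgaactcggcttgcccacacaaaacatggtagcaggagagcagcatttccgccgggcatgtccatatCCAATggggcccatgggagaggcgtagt
SAMHD1, chr20:36951709-36951858, minus strand: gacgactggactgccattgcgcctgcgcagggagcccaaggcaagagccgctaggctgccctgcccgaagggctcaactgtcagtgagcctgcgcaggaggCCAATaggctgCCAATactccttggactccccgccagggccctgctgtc

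Windows from 250 bases before to 50 bases after a start were found for 8 of the 9 members, 13 windows in all. The CCAAT letters, on either strand, were in windows of 5 members, RRM2, TK1, DTYMK, RRM1 and SAMHD1, and in at least 1 window of 39.7% of the 27305 genes with windows. RRM2 held 3 of them within 1 window, at −123, −93 and −66 from the start, and 3.26% of the 35116 windows of all genes held 3 or more. The E2F letters (TTTCCCGC, TTTCGCGC, TTTGCCGC or TTTGGCGC, on either strand) were in windows of 3 members, TYMS, DUT and DCK, and in those of 3.99% of all genes. The core of the hypoxia response element (ACGTG or GCGTG, on either strand) was in a window of all 8 members and of 52.4% of all genes. Overlapping matches, such as the hypoxia cores at −116 and −115 of DCK, were counted separately, and a member with several starts had several chances to hold one. CCAAT letters were found both in members that fell and in SAMHD1, which rose.

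RRM2 encodes the small subunit of ribonucleotide reductase used in S phase (ENSG00000171848.15, chr2:10260825-10351851 on hg19, plus strand). It had 246 and 245 CPM in 786-O-Ctrl against 40.02 and 39.1 CPM in 786-O-VHL. The libraries of each group lay close together, and the groups were far apart. RRM2 fell 6.23-fold, a log2 fold change of −2.64 with a standard error of 0.0754 and an FDR of 2.46e-21. Only 97 of the 12335 genes tested had a lower log2 fold change. Leaving out 1 library at a time gave log2 fold changes between −2.65 and −2.62.

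RRM1 encodes the large, catalytic subunit that both small subunits share (ENSG00000167325.15, chr11:4115937-4160162, plus strand). Its levels were 148 and 147 CPM in 786-O-Ctrl against 41.7 and 48.1 CPM in 786-O-VHL. RRM1 fell 3.17-fold (log2 fold change −1.66, standard error 0.0755, FDR 4.25e-17), which is less than RRM2. The ratio of RRM2 to RRM1 counts, which does not depend on how libraries are scaled, stood at 1.65 and 1.67 in 786-O-Ctrl against 0.959 and 0.814 in 786-O-VHL. It was 1.87-fold lower in 786-O-VHL and its libraries did not overlap between the groups (two-sided exact permutation p = 0.333, the smallest possible).

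RRM2B encodes the small subunit that DNA damage induces (ENSG00000048392.11, chr8:103216730-103251189, minus strand). It had 97.0 and 99.7 CPM in 786-O-Ctrl against 113 and 111 CPM in 786-O-VHL. Both 786-O-VHL libraries were above both 786-O-Ctrl libraries, by a small margin. RRM2B rose 1.14-fold, a log2 fold change of 0.19 with a standard error of 0.0666 and an FDR of 0.0156. The direction held under every alternative tried, with log2 fold changes between 0.16 and 0.32, but the call did not. The FDR was 0.154 with DESeq2, 0.202 after thinning all libraries to the depth of the shallowest, 0.227 without the deeper 786-O-Ctrl library, 0.118 without the shallower one and 0.0732 without 786-O-VHL replicate 2.

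RRM2 held the larger share of the small-subunit counts in 786-O-Ctrl, and RRM2B held it in 786-O-VHL. RRM2 took 71.7% of the counts of RRM2 and RRM2B in the deeper 786-O-Ctrl library (95% Clopper-Pearson interval 70.6 to 72.7%) and 71.1% in the shallower one (69.8 to 72.3%). In 786-O-VHL it took 26.1% in replicate 1 (22.1 to 30.4%) and 26.0% in replicate 2 (24.3 to 27.8%). The 786-O-VHL libraries were alike although their depths differed. The ratio of RRM2 to RRM2B counts fell from 2.53 and 2.46 to 0.353 and 0.351, a 7.08-fold difference (two-sided exact permutation p = 0.333, the smallest possible). These intervals cover counting error only. Per kilobase of the union of annotated exons, RRM2 was at 1.47 times the level of RRM2B in 786-O-Ctrl, against 0.208 times in 786-O-VHL. With the length of the Ensembl canonical transcript, the ratios were 3.65 and 0.516. RRM2 was thus the higher small subunit in 786-O-Ctrl and RRM2B the higher in 786-O-VHL with each length used.

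**Figure D3:**
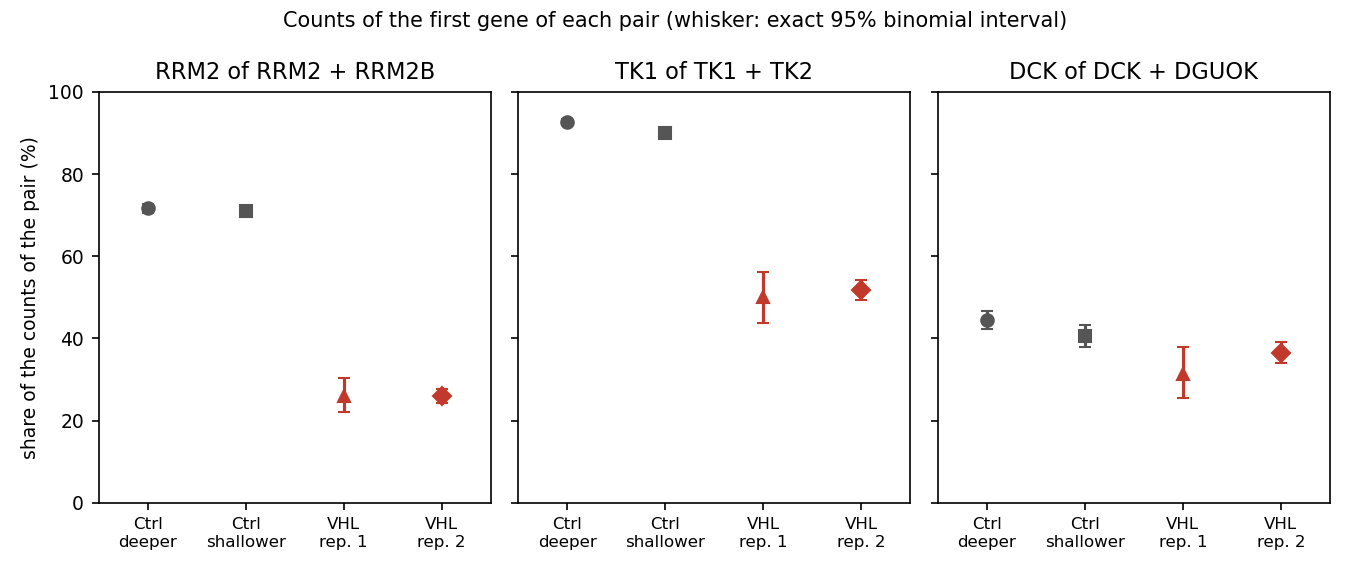
Share of the counts of a pair of genes that fell to the first one, in percent, for each library. Whiskers are exact 95% binomial intervals and cover counting error only. The share of RRM2 was 71.7% and 71.1% in 786-O-Ctrl and close to 26% in 786-O-VHL, TK1 had 92.7% and 90.1% in 786-O-Ctrl and intervals that include an equal split in 786-O-VHL, and DCK had 44.4% and 40.7% against 31.4% and 36.5%.

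TYMS encodes thymidylate synthase, which methylates dUMP to dTMP and is the target of 5-fluorouracil (ENSG00000176890.16, chr18:657653-673578, plus strand). It had 82.8 and 82.9 CPM in 786-O-Ctrl against 20.7 and 20.1 CPM in 786-O-VHL. Replicates of both groups were nearly equal. TYMS fell 4.10-fold (log2 fold change −2.04, standard error 0.0894, FDR 2.1e-17), and with library totals alone its log2 fold change was −1.90, short of 4-fold. In the annotation it shares 967 exonic bases with ENOSF1 on the opposite strand, and whether reads were counted by strand is not given in the sources used here. ENOSF1 was at 29.2 and 26.9 CPM in 786-O-Ctrl against 23.1 and 21.3 CPM in 786-O-VHL (log2 fold change −0.37). The part of shared reads in either value was not tested.

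DUT encodes the dUTPase that keeps uracil out of DNA and yields the dUMP for TYMS (ENSG00000128951.14, chr15:48623208-48635570, plus strand). DUT had 125 and 121 CPM in 786-O-Ctrl. In 786-O-VHL it had 51.6 CPM in replicate 1 (95% Poisson interval 43.7 to 60.4) and 73.7 CPM in replicate 2 (69.6 to 77.9). The replicates of 786-O-VHL thus differed beyond counting error, and both were below 786-O-Ctrl. DUT fell 1.81-fold (log2 fold change −0.85, standard error 0.0859, FDR 1.06e-09), and without 786-O-VHL replicate 2 its log2 fold change was −1.26. The annotation places 533 exonic bases of DUT-AS1 opposite DUT and names 8 DUT pseudogenes, so that reads they share could be placed either way. The same limit holds for RRM2 and TYMS, with 3 and 2 named pseudogenes. It also holds for TYMS and RRM1, which have 193 exonic bases of TYMSOS and 63 of RRM1-AS1 on the opposite strand. DUT-AS1, TYMSOS, RRM1-AS1 and the named pseudogenes had no entry in the deposited counts.

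DTYMK encodes thymidylate kinase, the step to dTDP at which the de novo and salvage routes meet (ENSG00000168393.13, chr2:242615162-242626359, minus strand). Its level was 152 CPM in each 786-O-Ctrl library against 64.8 and 69.8 CPM in 786-O-VHL. It fell 2.22-fold (log2 fold change −1.15, standard error 0.0699, FDR 2.64e-14). All 4 members on the way from dUTP or thymidine to dTDP, namely DUT, TYMS, TK1 and DTYMK, were lower in 786-O-VHL.

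TK1 encodes the cytosolic thymidine kinase of S phase, which salvages thymidine (ENSG00000167900.12, chr17:76170172-76183314, minus strand). It had 227 and 209 CPM in 786-O-Ctrl against 43.8 and 50.5 CPM in 786-O-VHL. TK1 fell 4.46-fold (log2 fold change −2.16, standard error 0.0778, FDR 2.86e-19), and leaving out 1 library at a time gave values between −2.32 and −2.11. The reporter in both groups also holds a thymidine kinase, and whether any of its reads were counted on TK1 was not tested.

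TK2, the mitochondrial thymidine kinase, went the other way. It had 17.8 and 22.9 CPM in 786-O-Ctrl against 43.8 and 47.0 CPM in 786-O-VHL (log2 fold change 1.20, standard error 0.113, FDR 2.91e-10). TK1 took 92.7% and 90.1% of the counts of TK1 and TK2 in 786-O-Ctrl. In 786-O-VHL each had 129 counts in replicate 1, and TK1 took 51.8% in replicate 2. The ratio of the counts was 10.6-fold lower in 786-O-VHL. The kinases were thus counted about equally often in 786-O-VHL, whereas in 786-O-Ctrl TK1 had 12.8 and 9.13 times the counts of TK2.

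DCK encodes deoxycytidine kinase, which salvages deoxycytidine and purine deoxynucleosides and activates cytarabine and gemcitabine (ENSG00000156136.10, chr4:71858255-71896631, plus strand). It had 41.4 and 35.9 CPM in 786-O-Ctrl, 24.4 CPM (95% Poisson interval 19.1 to 30.8) in 786-O-VHL replicate 1 and 32.2 CPM (29.5 to 35.0) in replicate 2. DCK had the smallest decrease of the 7 members that fell, 1.28-fold (log2 fold change −0.36, standard error 0.109, FDR 0.00577). Its log2 fold change moved to −0.68 when 786-O-VHL replicate 2 was left out, and without the deeper 786-O-Ctrl library it was −0.27 with an FDR of 0.137. With library totals alone, which move the median gene by 0.133 on the log2 scale, it was −0.22 with an FDR of 0.0725. DCK shares 199 exonic bases with MOB1B on the same strand, which was at 38.2 and 40.8 CPM in 786-O-Ctrl against 54.6 and 47.5 CPM in 786-O-VHL. DGUOK, the mitochondrial kinase for purine deoxynucleosides, stayed between 51.9 and 55.9 CPM in the 4 libraries (log2 fold change 0.08, standard error 0.0792, FDR 0.361).

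SAMHD1 encodes the triphosphohydrolase that breaks deoxynucleotides down and thereby limits their pool (ENSG00000101347.9, chr20:35518632-35580296, minus strand). It had 63.1 and 62.7 CPM in 786-O-Ctrl against 81.7 and 76.8 CPM in 786-O-VHL. Both 786-O-VHL libraries were above both 786-O-Ctrl libraries. SAMHD1 rose 1.24-fold (log2 fold change 0.31, standard error 0.0721, FDR 0.000438). After 1 random thinning of all libraries to the depth of the shallowest, the log2 fold change was 0.16 and the FDR 0.263. The annotation places 1068 exonic bases of TLDC2 opposite SAMHD1, and TLDC2 had no entry in the deposited counts.

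Between genes, levels can be compared only per length. Per kilobase of exon union, TK1 was the highest member in 786-O-Ctrl, at 118 ± 6.93 CPM per kilobase (SD, n = 2), followed by DTYMK at 63.5 ± 0.02. RRM1, TYMS and DUT followed at 34.9 ± 0.27, 34.2 ± 0.04 and 33.4 ± 0.77, and RRM2 was at 26.8 ± 0.06. RRM2B at 18.2 ± 0.36, DCK at 12.5 ± 1.27 and SAMHD1 at 5.81 ± 0.03 were the lowest. In 786-O-Ctrl no neighbours in this order overlapped between libraries.

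In 786-O-VHL the order was different. DTYMK at 28.0 ± 1.47 and TK1 at 25.5 ± 2.60 CPM per kilobase were highest, with overlapping libraries, and RRM2B came next at 20.8 ± 0.26. DUT was at 17.0 ± 4.26. RRM1, DCK and TYMS were at 10.6 ± 1.06, 9.12 ± 1.77 and 8.42 ± 0.18, and the libraries of DCK overlapped with those of RRM1 and with those of TYMS. SAMHD1 was at 7.32 ± 0.32 and RRM2 was lowest at 4.32 ± 0.07. The order depends on the length used. The exon union of RRM2 is 9153 bases and its canonical transcript 3258 bases. With canonical transcripts RRM2 came next after TK1 and DTYMK in 786-O-Ctrl, at 75.3, and in 786-O-VHL it was at 12.1 beside DCK at 11.3, with overlapping libraries. RRM1 moved below DUT and TYMS in 786-O-Ctrl with canonical transcripts, and SAMHD1, at 17.1, moved above RRM1, TYMS and DCK in 786-O-VHL. DTYMK and TK1 no longer overlapped in 786-O-VHL, at 64.0 and 32.9. With the longest transcripts DTYMK, at 139.8, passed TK1, at 129.6, as the highest member in 786-O-Ctrl.

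Over all genes tested, 31.9% were lower and 32.6% were higher. Of 26 other enzymes and transporters of deoxynucleotides and deoxynucleosides, 10 were lower, 7 were higher and 9 did not pass the test. Their median log2 fold change was −0.07. The number that were higher was 3 without 786-O-VHL replicate 2, 4 with DESeq2 and 11 with library totals alone. Among the decreases were those of the deoxycytidine deaminase CDA, which had only 4 and 9 counts in the 786-O-VHL libraries (log2 fold change −2.07), and of DCTPP1, a pyrophosphatase that removes modified dCTP. DCTPP1 was at 71.7 and 71.4 CPM in 786-O-Ctrl against 29.5 and 30.6 CPM in 786-O-VHL (log2 fold change −1.24). After TK2, the largest increases were those of CMPK2, a mitochondrial nucleotide kinase induced by interferon (log2 fold change 1.03, FDR 0.00168), and of NME3, a nucleoside diphosphate kinase (0.87). CMPK2 was low, at 2.80 and 2.39 CPM in 786-O-Ctrl against 3.73 and 5.82 CPM in 786-O-VHL, with only 11 counts in 786-O-VHL replicate 1. DCTD, which deaminates dCMP to the dUMP used by TYMS, was between 64.9 and 69.5 CPM in the 4 libraries and did not pass the test (log2 fold change 0.08, FDR 0.323).

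The ribonucleotides that feed the reductase come from de novo synthesis. Of 13 purine genes, 8 were lower, 1 was higher and 4 did not pass, with a median log2 fold change of −0.28. IMPDH1, which commits IMP to guanine nucleotides, had −1.04, the bifunctional PAICS −0.98 and PRPS1, which makes PRPP, −0.82. ADSS1, the adenylosuccinate synthase of muscle, was the exception at 1.51, from 3.13 and 4.05 CPM in 786-O-Ctrl to 12.2 and 9.44 CPM in 786-O-VHL. Of 5 pyrimidine genes, 3 were lower and 0 were higher by edgeR, 0 also at an unadjusted p below 0.05 and with DESeq2 and limma-voom, and the median was −0.44. CTPS1, the CTP synthase of proliferating cells, had −1.12, UMPS −0.69 and CAD, which carries out the first steps, −0.44.

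Of 17 regulators of the members, 13 were lower, 3 were higher and 1 did not pass, with a median log2 fold change of −0.70. E2F1, an activator of RRM2, TK1 and TYMS, was at 113 and 107.8 CPM in 786-O-Ctrl against 17.6 and 18.5 CPM in 786-O-VHL (log2 fold change −2.59, standard error 0.0883, FDR 9.6e-20). CDK2, the S phase kinase, had −1.62 and the repressor E2F8 −1.49. CCNF, the cyclin F that marks RRM2 protein for degradation in G2, was at 69.1 and 71.5 CPM in 786-O-Ctrl against 33.6 and 31.0 CPM in 786-O-VHL (−1.15). Activators and repressors of the members were thus both among those that fell. The libraries of LIN9, 1 of the 13 that fell, overlapped between the groups, and it was singled out after its values were seen. Among the regulators that rose were E2F5 (0.92) and AHCYL1 (0.39), whose product IRBIT binds ribonucleotide reductase.

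By edgeR, the 44 S phase genes tested, without the members, were all lower in 786-O-VHL at an FDR below 0.05, against 31.9% of all genes tested. This list was written by hand with earlier results of these data known. The median log2 fold change of its genes was −1.70, with a range from −3.89 to −0.46. The number lower was 44 with limma-voom, 40 with DESeq2, 41 after thinning and 39 when 10 counts in every library were required. That last filter also took genes such as GINS2 out of the test, so that fewer than 44 were tested there. None was higher by edgeR, DESeq2 or limma-voom, with 0 also at an unadjusted p below 0.05. Their counts together were 4174 and 3990 CPM in 786-O-Ctrl against 1246 and 1294 CPM in 786-O-VHL. CCNE2, the cyclin E2 of the G1 to S transition, had −3.89. GINS2 of the replicative helicase had −3.28, with only 9 and 69 counts in the 786-O-VHL libraries. MCM4, a helicase subunit, had −2.93, from 444 and 412 CPM to 55.3 and 56.3 CPM. The decreases of RRM2, TK1 and TYMS exceeded the median of this list, that of RRM1 was close to it, and those of DTYMK, DUT and DCK were smaller. The part of the S phase content of the cultures in the members' values was not tested.

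**Figure D4:**
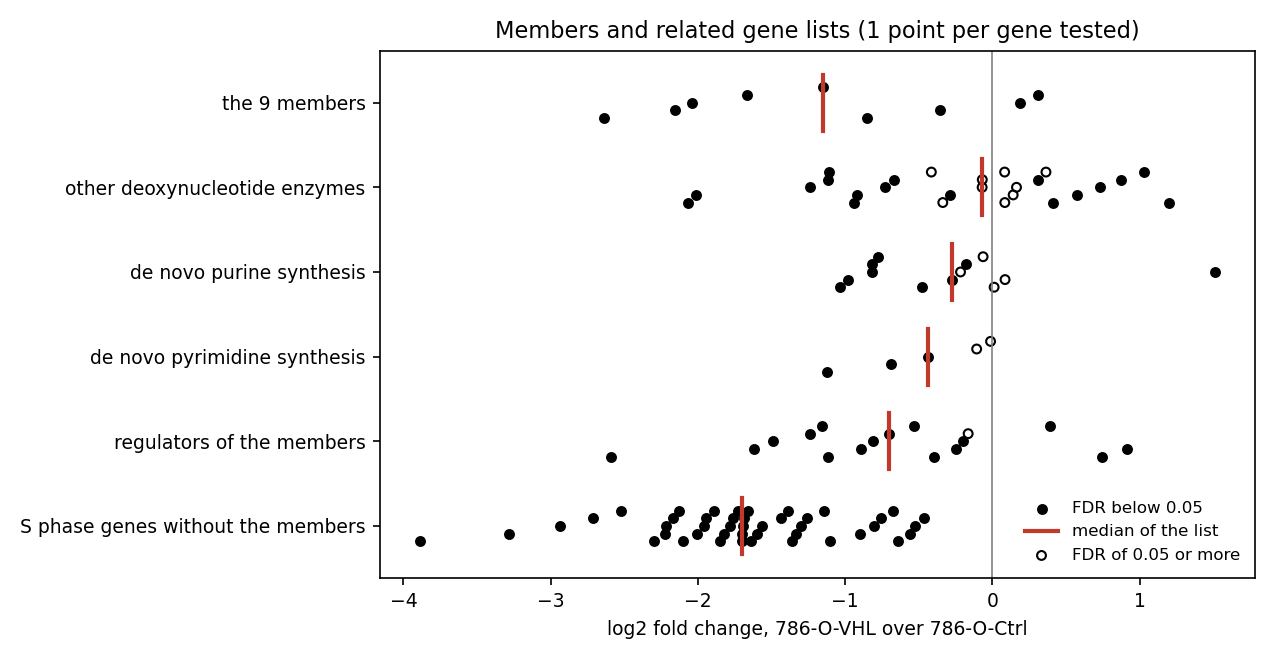
Log2 fold change, 786-O-VHL over 786-O-Ctrl, of the 9 members and of the genes tested in 5 related lists, with 1 point per gene. Filled points have an FDR below 0.05 and red lines are medians. The S phase genes all lie below 0, the members spread from −2.64 to 0.31, and the other deoxynucleotide enzymes lie on both sides of 0.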

How the data were processed

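The authors deposited raw read counts per gene for 4 Illumina libraries, made from alignments to hg19. The submitters' processing notes name CASAVA and STAR. For the counting tool, its annotation and its use of strand, the sources used here give nothing. Since the columns of 786-O-Ctrl share 1 replicate number, these libraries are named by depth.

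The test was edgeR's quasi-likelihood F test (edgeR 4.0.16, R 4.3.3). filterByExpr at a minimum count of 10 kept 12335 genes and removed 577. TMM factors scaled the library totals, the model held the group alone and used all 4 libraries, and p-values were adjusted by Benjamini-Hochberg over all genes tested. The biological coefficient of variation was 4.31%. Standard errors were derived from the F statistic. A count of 0 would allow up to 3 counts, which correspond to between 0.142 and 1.02 CPM.

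Positions and exon lengths are from a GRCh37 annotation (GENCODE), which held 12749 of the 12912 identifiers. The members and lists were chosen with earlier results of these data known, and the lists were written by hand. The text names all members and VHL, of each list at most 3 genes per direction with the largest log2 fold change past an FDR of 0.05, and CMPK2, TK2, DGUOK, DCTD, E2F1 and CCNF. Some genes and 1 list under this rule are not reported here. ENOSF1 and MOB1B were added because they share exons with members, cell type markers for the check of the cells, and LIN9 after its values were seen.

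On counts simulated for this comparison over 12335 genes, edgeR recovered 194 of 200 changed genes with 3 false calls, DESeq2 178 and limma-voom 195. In the measured libraries, 31.9% of the genes tested were lower and 32.6% were higher by edgeR. Recovery at smaller log2 fold changes, such as those of RRM1 (−1.66), DTYMK (−1.15), DUT (−0.85), RRM2B (0.19), SAMHD1 (0.31) and DCK (−0.36), was not tested. Alternatives were DESeq2 1.42.0, limma-voom (limma 3.58.1), RLE size factors, library totals alone, no filter, 10 counts in every library, thinning to the shallowest library, each library left out in turn, and other lengths for levels per kilobase, of which the canonical transcript was added after seeing the data.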

Additional observations from a re-analysis of the deposited data

How the results depend on the processing

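All 99 log2 fold changes of the members under alternatives kept their direction, and 91 kept their side of an FDR of 0.05. The number of members higher was 1 with DESeq2, 0 after thinning (0 also at an unadjusted p below 0.05 by edgeR) and 1 to 2 with 1 library left out. RRM2B had 0.17 with DESeq2, 0.16 after thinning and 0.16 to 0.20 with 1 library left out. DCK had −0.22 with library totals alone and −0.68 to −0.27 with 1 library left out, and SAMHD1 had 0.16 after thinning. Of the other deoxynucleotide enzymes, 11 were higher with library totals alone, 4 with DESeq2 and 3 to 7 with 1 library left out, the lowest without 786-O-VHL replicate 2. Library totals alone raised the purine genes that were higher to 2. RRM2 over RRM2B per kilobase was 3.24 in 786-O-Ctrl against 0.458 in 786-O-VHL with the longest transcript, and 3.65 and 0.516 with the canonical one. Where a call was lost with fewer libraries or reads, less data entered the fit. The log2 fold change itself also moved in some of these fits, as for SAMHD1 after thinning, from 0.31 to 0.16. Why calls were lost was not tested for any alternative. No paired analysis was possible because both 786-O-Ctrl columns carry the same replicate number. In 786-O-VHL replicate 1, the shallowest library, the members had 61 to 334 counts each, which limits the precision of their values there.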
